A study of Caenorhabditis elegans with 2 samples.

Results

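The genes described here are 10 transcription factor genes of the *C. elegans* pharynx, pha-4, ceh-22, tbx-2, pha-2, ceh-34, eya-1, peb-1, ceh-2, ceh-24 and ceh-28, of 19973 protein-coding genes in the annotation. They were named as a list, by symbol, and all 10 were found in it. Chromatin bound by SUP-37 was immunoprecipitated and sequenced (ChIP-seq) in 1 group of 2 biological replicates. The larvae were of strain OP611, in which a transgene insertion, wgIs611, encodes SUP-37 with TY1, EGFP and 3xFLAG tags at its C-terminus and carries unc-119(+) in an unc-119(tm4063) mutant background. They were L1 larvae of mixed sex, starved after bleaching and 6 hours old, and whole animals were used, so binding in a few pharyngeal cells and weak binding in all cells cannot be told apart. No untagged strain or other genotype was analysed here. The lists hold no expression values, so activity of the 10 genes in these larvae was not checked. The samples' description says that GFP was the target of the antibody, while their antibody label reads sup-37.

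Each replicate, and the pool of both, came with the authors' list of 30000 regions, which holds peaks and background. The authors also gave 924 peaks thresholded on the irreproducible discovery rate (IDR), a filter on how similarly peak lists rank their regions. These peaks are the regions of pooled rank 1 to 924. Regions were ranked within their list by the authors' signal value, with 1 the strongest, because no source gives the scale of the signal and the lists have different medians. For every gene, all summits within the gene or up to 5000 bp upstream of its annotated 5′ end were taken. A summit from 1000 bp upstream to 200 bp downstream of the 5′ end was called promoter, one farther upstream distal, and one farther inside the gene was assigned to a coding exon, UTR exon or intron. Transcripts of many worm genes are trans-spliced, so an annotated 5′ end can lie downstream of the place where transcription begins. No statistical test compares groups here, because there is 1 group. The count over all protein-coding genes stands beside each count instead.

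The pharynx is the feeding organ of the worm, a tube of muscle, epithelial, gland and nerve cells. PHA-4, a forkhead factor of the FoxA family, is required for all of its cells to form and binds many genes that are active in them. Later factors act on part of the organ, among them the NK-2 homeodomain protein CEH-22 in pharyngeal muscle and the sine oculis class homeodomain protein CEH-34 in pharyngeal neurons. SUP-37 is known from genetics as a suppressor of mutations in pha-1, which disturb pharynx development.

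SUP-37 had an IDR peak at 1 of the 10 genes, ceh-22, and at none of their promoters as set by the gene's 5′ end. With the 5′ ends of all transcripts, the ceh-22 peak counts as promoter, and the number of genes with a promoter peak is 1. The share of 10% with a peak in the gene or upstream (95% exact binomial interval 0.253 to 44.5) stood beside 7.76% of all protein-coding genes. For promoter peaks it was 0 of 10, with an upper bound of 30.8%, beside 3.44% of all genes. The strongest pooled regions at ceh-34 and pha-4 ranked 1265 and 1641, below the IDR list, and were found in both replicates. Among the 5000 strongest pooled regions, 6 of 10 genes had a summit (60.0%, 26.2 to 87.8), beside 30% of all genes. For ceh-22 this was the IDR peak, and for the other 5 (pha-4, ceh-34, eya-1, ceh-2 and ceh-24) it was a weaker region. The interval around that share includes the share of all genes. Intervals here cover counting error only, and the 10 genes are a chosen list, so no interval is a test against all genes.

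**Figure D1:**
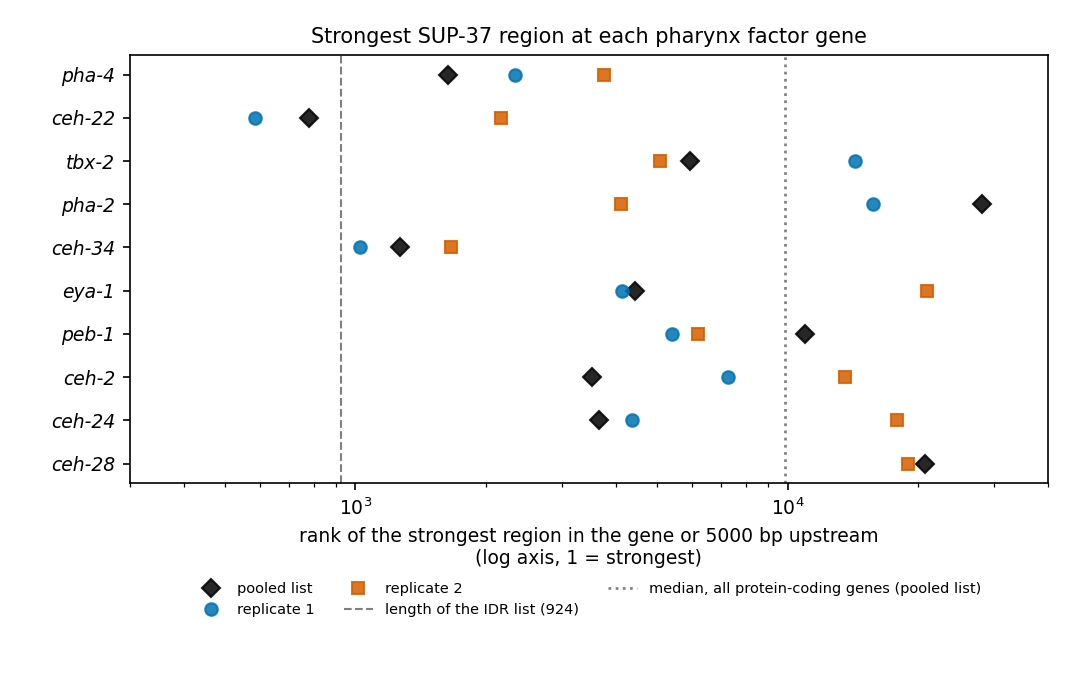
Rank of the strongest region in each gene or 5000 bp upstream, on a log axis with the strongest at the left, in the pooled list (diamonds), replicate 1 (circles) and replicate 2 (squares). Only ceh-22 passed the length of the IDR list (924, dashed), in the pool and in replicate 1, and ceh-28 had no region in replicate 1. The dotted line marks the median over all protein-coding genes in the pooled list, 9871.

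The IDR peak of ceh-22 lay inside its coding sequence. ceh-22 (WBGene00000445, chromosome V, 10671918 to 10675769, plus strand) encodes the NK-2 homeodomain factor that activates pharyngeal muscle genes together with PHA-4. The peak (chromosome V, 10672570 to 10672953 on ce11, which is assembly WBcel235) ranked 782 of 924 with an authors' signal of 126.3, where the weakest IDR peak had 116.5 and the median was 162.5. Its summit was 844 bp downstream of the 5′ end, in the coding part of exon 1 of transcript a, which follows a 5′ UTR of 716 bp. Transcript d is annotated from the first coding base, and the summit was 128 bp downstream of that 5′ end. The noncoding RNA gene F29F11.19 overlaps the summit on the opposite strand.

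Replicate 1 ranked this region 585 and replicate 2 ranked it 2174. The signals were 84.5 in replicate 1 and 39.7 in replicate 2, on scales that differ. The summits of the replicates, 814 and 881 bp downstream of the 5′ end, were 67 bp apart. The ceh-22 peak was therefore within the 924 strongest regions of replicate 1 but not of replicate 2. Taken by replicate, 1 of 10 genes had such a region in replicate 1, beside 7.49% of all genes, and 0 of 10 in replicate 2, beside 8.06%. In both replicates at the same place (summits within 200 bp) the count was 0 of 10, beside 5.30% of all genes. By the gene's 5′ end, a summit in a coding exon was rare among IDR peaks, with 18 of 1780 pairs of gene and summit over all protein-coding genes (1.01%), against 39.6% in promoters, 11.4% in introns and 46.6% in distal sequence.

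The sequences at the strongest regions of ceh-22, pha-4 and ceh-34 are shown because they are the places where binding came nearest to, or passed, the IDR threshold. Each is the reference sequence 50 bp either side of the pooled summit, 5′ to 3′ on the strand of the gene, and capitals mark a match to a motif searched. For ceh-34 the 41 bases in the 3′ UTR of ceh-33 are left out, which leaves 60. The positions are chrV:10672712-10672812 (plus strand) for ceh-22, chrV:20752767-20752867 (plus) for the pha-4 promoter, chrV:20748442-20748542 (plus) for the pha-4 distal region and chrV:5323134-5323193 (minus) for ceh-34.
ceh-22, coding exon: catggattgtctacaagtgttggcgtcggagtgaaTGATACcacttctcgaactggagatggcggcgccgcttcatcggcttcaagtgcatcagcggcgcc
pha-4, promoter: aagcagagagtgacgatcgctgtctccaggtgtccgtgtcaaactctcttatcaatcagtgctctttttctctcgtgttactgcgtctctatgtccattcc
pha-4, distal: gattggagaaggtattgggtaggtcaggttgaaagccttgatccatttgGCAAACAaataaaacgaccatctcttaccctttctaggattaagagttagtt
ceh-34, distal: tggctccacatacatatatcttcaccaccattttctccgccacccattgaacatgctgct

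Few of these regions held the motifs searched on both strands. The forkhead word TGTTTGC was in the distal pha-4 region as its reverse complement, and in 3 of the 45 pooled regions of the 10 genes (6.67%), beside 5.41% of IDR peaks and 2.18% of all pooled regions. The other 2 were a distal region of ceh-22 (rank 10363) and an intronic region of ceh-34 (rank 4228). The sine oculis class word TGATAC was in the ceh-22 peak alone of the 45 (2.22%), beside 1.73% of IDR peaks and 3.22% of pooled regions. The other forkhead word TGTTTAC differs from the first in a single base, so no stretch matches both. It and the words CACTTAA (NK-2) and TCACACC (T-box) were in none of the 45, beside 1.17%, 0.657% and 0.850% of pooled regions. The content of G and C was 56.4% in the ceh-22 window, 47.5% in the pha-4 promoter window, 39.6% in the pha-4 distal window and 35.6% in the full ceh-34 window of 101 bp. The median was 40.6% over the regions of the 10 genes, beside 40.6% over all pooled regions and 49.5% over IDR peaks.

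pha-4, the organ selector gene (WBGene00004013, chromosome V, 20753052 to 20760317, plus strand), had no IDR peak but many weaker regions. Its strongest pooled region (20752625 to 20753008) had its summit 235 bp upstream of the 5′ end, in the promoter, and ranked 1641 with a signal of 92.6. Replicate 1 ranked it 2334, with the summit 274 bp upstream, and replicate 2 ranked it 3761, with the summit 193 bp upstream. These summits were 81 bp apart. That of replicate 1 lay inside the noncoding RNA gene F38A6.6 (20752662 to 20752786), while the pooled summit was 31 bp and that of replicate 2 73 bp outside it. The next region of pha-4 was distal, 4560 bp upstream, with rank 1783 in the pool, 2438 in replicate 1 and 7320 in replicate 2. That summit lay nearer to the 5′ end of dnj-25, 4146 bp away. An intronic region 3155 bp downstream of the 5′ end ranked 3958 in the pool, 12399 in replicate 1 and 8281 in replicate 2, and lay 703 bp upstream of the 5′ end of transcript c.

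In all, 12 pooled regions fell in the pha-4 window, and 11 of these had a summit within 200 bp in both replicates. The regions are 384 bp wide and some overlap, and 2 pairs of pooled regions had the same counterparts in the replicates. By class they were 2 promoter, 4 distal, 4 intronic and 2 coding. This is 97.8 regions per 100 kb, and replicate lists held 9 regions in replicate 1 and 12 in replicate 2. As many pooled regions per base were found at 186 of all protein-coding genes (0.931%). By count, as many were found at 139 genes (0.696%), and at 8 of those whose window was no longer (0.0440%). That last share sets the pha-4 window of 12266 bp beside windows that are mostly much shorter, with a median of 7027 bp over all genes. The gene lies at 99.2% of the length of chromosome V, and the 100 kb on either side held 43.0 regions before and 44.0 after, against 28.8 per 100 kb over the chromosome. Each of these flanks held a single IDR peak.

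**Figure D2:**
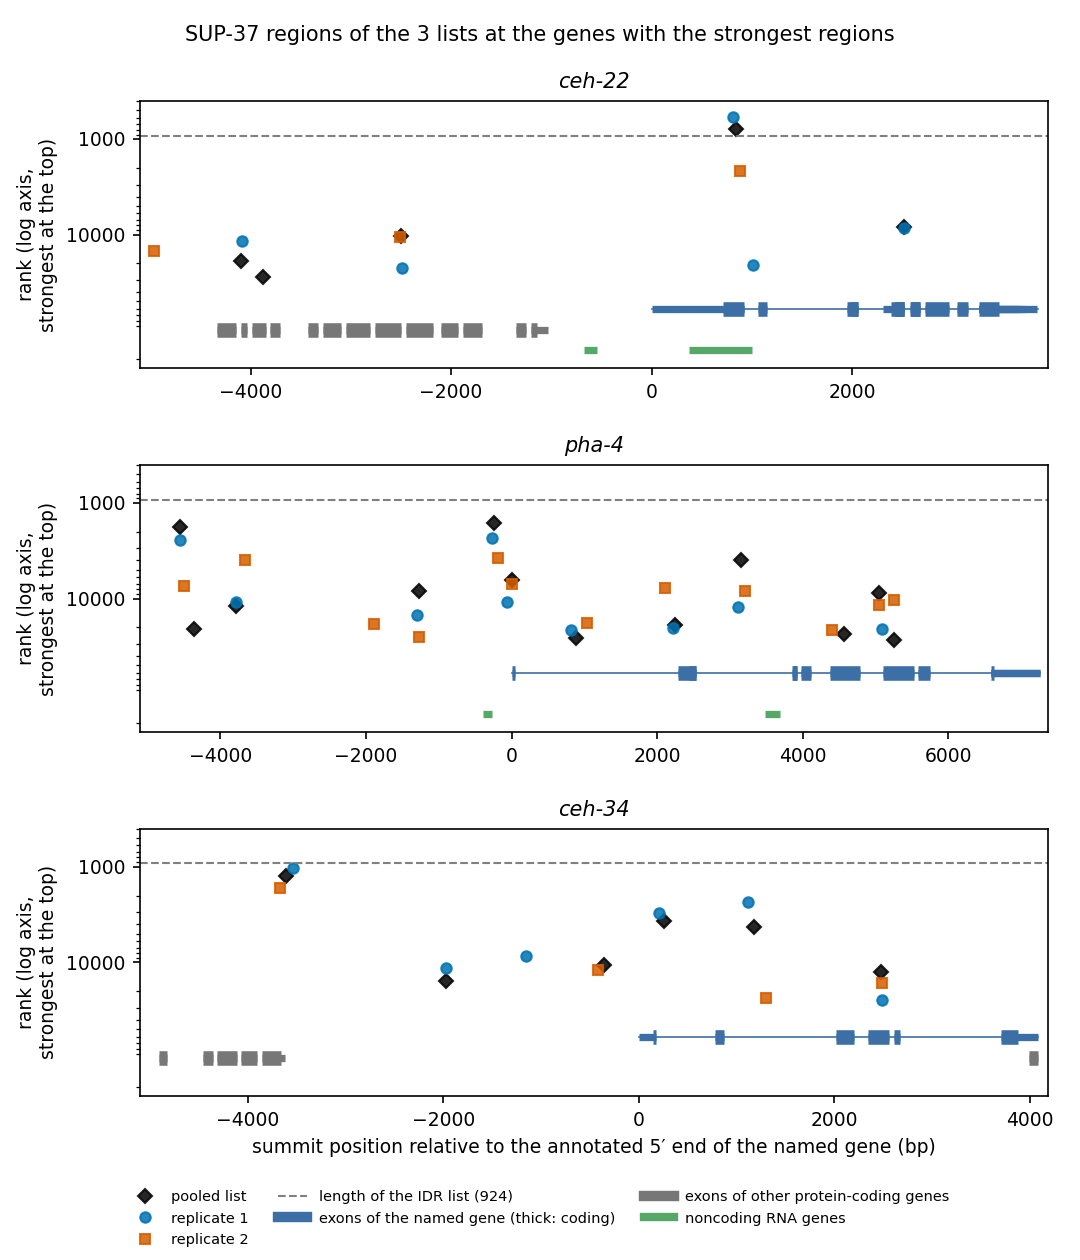
Rank (log axis, strongest at the top) against summit position relative to the annotated 5′ end, for all regions of the pooled list and of both replicates at ceh-22, pha-4 and ceh-34, with exons drawn below. The ceh-22 coding-exon region is above the length of the IDR list (dashed) in the pool and replicate 1, and the pooled regions of pha-4 run from 4560 bp upstream to 5256 bp downstream of its 5′ end.

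ceh-34 had a strong distal region in both replicates, and its cofactor gene eya-1 a weaker one that ranked high in replicate 1 only. CEH-34 is a homeodomain factor of the sine oculis class that acts in pharyngeal neurons, and EYA-1, the worm Eyes absent protein, acts as its partner. The strongest ceh-34 region (chromosome V, 5322992 to 5323375) was distal, 3607 bp upstream of the 5′ end, and ranked 1265 with a signal of 101.1. It ranked 1025 in replicate 1 and 1667 in replicate 2 with summits 127 bp apart, outside the 924 strongest regions of either replicate. Its pooled summit lay in the sequence between the related homeobox gene ceh-33 and ceh-34, which run on the same strand. It was 10 bp beyond the 3′ end of ceh-33 (5323194 to 5324666). The protein-coding 5′ end nearest to the pooled summit was that of ceh-33, 1482 bp away on the other side. In replicate 1 the summit, 3540 bp upstream of the ceh-34 5′ end, was also outside ceh-33. That of replicate 2, 3667 bp upstream, lay inside the coding sequence of ceh-33.

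A pair of intronic ceh-34 regions, 257 and 1182 bp downstream of the 5′ end, ranked 3725 and 4228 in the pool. They ranked 3035 and 2326 in replicate 1. In replicate 2 the place 257 bp downstream had no region within 200 bp, and the place 1182 bp downstream ranked 23711. Both were therefore strong in replicate 1 and weak or missing in replicate 2. The promoter region of ceh-34, 361 bp upstream, ranked 10622 in the pool. For eya-1 (chromosome I, 14220693 to 14231360, minus strand) the strongest region was distal, 1082 bp upstream, and ranked 4428 in the pool, 4130 in replicate 1 and 28955 in replicate 2. The nearest protein-coding 5′ end was that of eya-1 itself.

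Among the muscle and early factors, none of tbx-2, pha-2 and peb-1 had a pooled region among the 5000 strongest. TBX-2 is a T-box factor required for anterior pharyngeal muscle. Its gene (chromosome III, 5130923 to 5136296) had 5 pooled regions, the strongest 2526 bp upstream, inside the upstream gene Y54H5A.2, with rank 5935 in the pool, 16540 in replicate 1 and 17231 in replicate 2. A coding-exon region 4869 bp downstream ranked 9802 in the pool and 5065 in replicate 2, with no counterpart in replicate 1. PHA-2 is a homeodomain factor of the Hex family that shapes the pharyngeal isthmus. Its gene (chromosome X, 633368 to 636993) had pooled regions at ranks 28128 and 28242 only. The first of these is the weakest best rank of the 10 genes in the pooled list. The strongest region of pha-2 in replicate 2 (rank 4116, 2235 bp upstream) had no counterpart in the pool or in replicate 1. PEB-1 is a DNA-binding protein that binds the enhancer of the pharyngeal myosin gene myo-2. Its gene (chromosome X, 2211051 to 2218988) had 4 pooled regions, at ranks from 10977 to 23386, of which 3 were intronic. The strongest of these ranked 8885 in replicate 1 and 6212 in replicate 2, but the summits of the replicates were not within 200 bp of each other. An intronic region near the 5′ end, 1116 bp downstream, ranked 11703 in the pool and 5398 in replicate 1, with no counterpart in replicate 2.

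The 3 remaining homeobox genes also had no region that both replicates ranked among their 5000 strongest. CEH-2, of the EMS family, acts in pharyngeal neurons. The strongest region of ceh-2 (chromosome I, 6046788 to 6050451) was intronic, 1190 bp downstream, and ranked 3523 in the pool, 7284 in replicate 1 and 15944 in replicate 2. A promoter region 162 bp downstream of its 5′ end ranked 6991. CEH-24, of the NK-2 family, is expressed in a pharyngeal muscle cell. The strongest region of ceh-24 (chromosome V, 13813231 to 13815350) lay 4576 bp upstream and ranked 3661 in the pool and 4374 in replicate 1, with none within 200 bp in replicate 2, and the nearest 5′ end was that of swan-1, 1418 bp away. CEH-28, also of the NK-2 family, is expressed in the pharyngeal neuron M4. ceh-28 (chromosome X, 13074673 to 13076092) had a single pooled region, 90 bp downstream of the 5′ end inside the antisense noncoding gene K03A11.8, with rank 20815 in the pool, 24107 in replicate 2 and none in replicate 1.

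**Figure D3:**
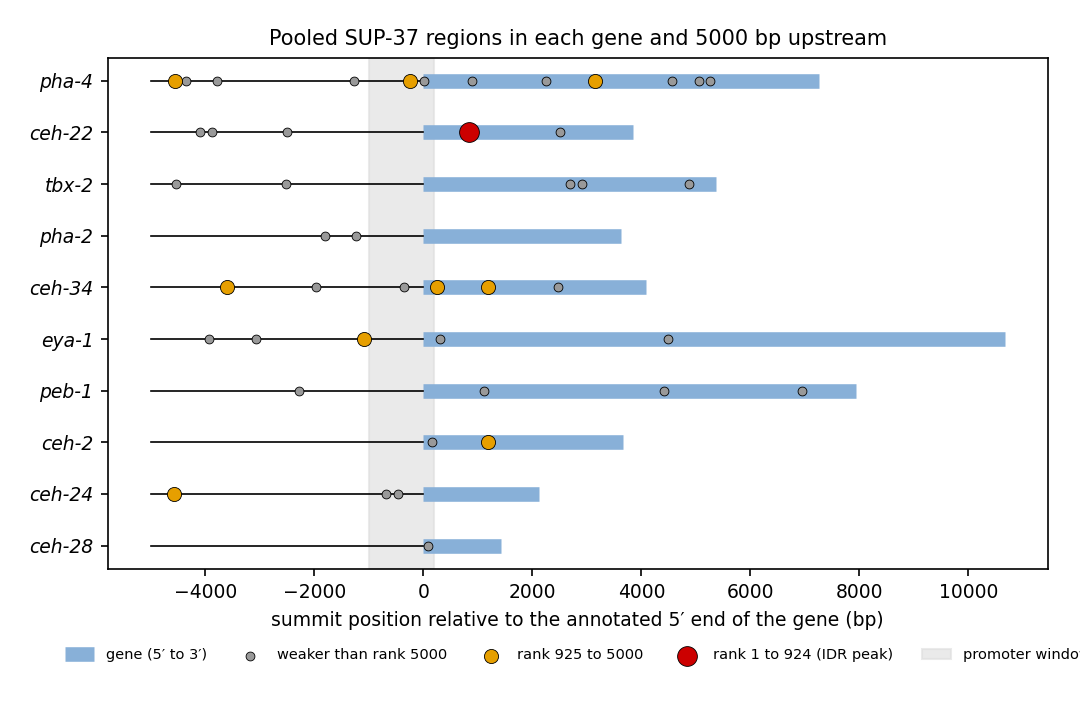
All 45 pooled regions of the 10 genes, by summit position relative to the annotated 5′ end (bp), with the gene as a bar and the promoter window shaded. The single IDR peak is in ceh-22, the 9 regions of rank 925 to 5000 are at pha-4, ceh-34, eya-1, ceh-2 and ceh-24, and pha-4 has 12 of the 45.

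Over the 10 genes, all had some pooled region in the gene or upstream, beside 86.7% of all genes, and 5 had one in the promoter, beside 35%. Of the 45 regions, 7 were promoter (15.6%, beside 15.9% over all genes), 6 coding (13.3%, beside 18.6%), 14 intronic (31.1%, beside 16.5%) and 18 distal (40.0%, beside 46.7%). Their density was 45 regions per 100 kb of window, beside 31.3 over all genes, whose windows overlap each other, and 37.6 without pha-4. IDR summits had a density of 1.00 per 100 kb, beside 1.08 over all genes. A counterpart is a replicate summit within 200 bp of the pooled summit, so the summits of the replicates can lie farther apart than that. A counterpart in both replicates was found for 51.1% of the 45 regions, beside 34.1% of the whole pooled list, and pha-4 had 11 of those 23. Without pha-4 the share was 36.4% of 33 regions. For the 10 regions of rank 5000 or better it was 80.0%, beside 80.5% of pooled regions of rank 925 to 5000. Those rank ranges differ, since the 10 include the ceh-22 IDR peak and the 80.5% leaves out all IDR peaks. For the 35 weaker regions the share was 42.9%, beside 24.2% of pooled regions below rank 5000. Without pha-4 it was 26.9% of 26 weaker regions, so the higher share rested on pha-4.

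Ranks over the 10 genes ranged widely, from 782 at ceh-22 to 28128 at pha-2. The median rank of the strongest pooled region was 4044 over the 10 genes and 9871 over all protein-coding genes, with a gene without a region placed after the last rank. It was 4886 over the 10 genes in replicate 1, beside 9595, and 5638 in replicate 2, beside 10307. Among the 5000 strongest regions of a replicate, 5 of the 10 genes had a summit in replicate 1, beside 31.4% of all genes, and 4 in replicate 2, beside 30%. A summit shared within 200 bp by the 5000 strongest of both replicates was found at pha-4, ceh-22 and ceh-34, 3 of 10 (30%, 6.67 to 65.2), beside 11.6% of all genes. A region as strong as that of ceh-22 was found at 6.83% of all genes, as that of ceh-34 at 9.94% and as that of pha-4 at 12.3%.

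**Figure D4:**
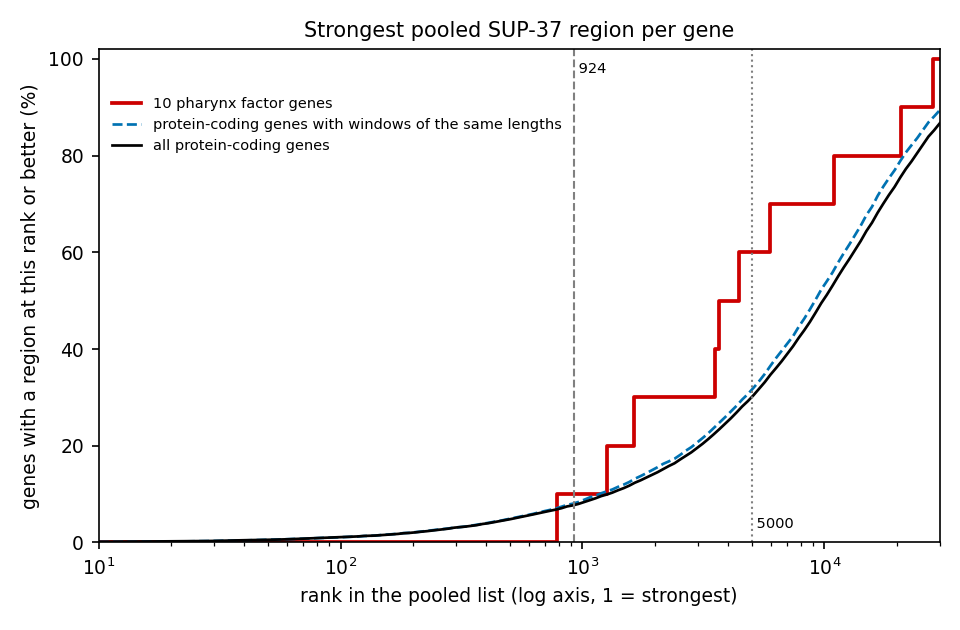
Share of genes (%) whose strongest pooled region in the gene or 5000 bp upstream has the given rank or better (log axis). Curves are for the 10 pharynx factor genes, for protein-coding genes with windows in the same range of lengths and for all protein-coding genes. The 3 curves lie close at rank 924 (10%, 8.13% and 7.76%) and apart at rank 5000 (60.0%, 31.6% and 30%).

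By their medians, these genes lay farther from the next gene upstream, and had longer windows, than protein-coding genes in general. The nearest protein-coding gene upstream was at a median of 3534 bp (1027 to 8705), beside 1156 bp over all genes. Windows were 6420 to 15668 bp long with a median of 8967 bp, beside a median of 7027 bp. Among the 12726 protein-coding genes with windows of 6420 to 15668 bp, 8.13% had an IDR peak, 31.6% a summit among the 5000 strongest pooled regions and 12.3% a shared summit among the 5000 strongest of both replicates. The median window of those 12726 genes was 7725 bp, so lengths were held to a range and not matched. Every window reaches 5000 bp upstream, so this range limits genes by their own length and not by the distance to the next gene. The part of that distance in the ranks was not tested.

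Genes related by organ or by family were read in the same way. Of all protein-coding genes, 30% had a summit among the 5000 strongest pooled regions and 7.76% an IDR peak. Of 15 genes that induce the pharynx or set its cell fates, 8 (53.3%) had a summit among the 5000 strongest pooled regions. An IDR peak was found at 2 (13.3%). These were unc-62, which encodes a homeodomain cofactor (best rank 705), and skn-1, which specifies the lineage that gives rise to posterior pharynx (rank 768, 3173 bp downstream of its 5′ end). The unc-62 summit lay 10532 bp downstream of the 5′ end and nearer to that of T28F12.1. Of 17 structural genes of the pharynx, such as the pharyngeal myosins, 7 (41.2%) had a summit among the 5000 strongest and none an IDR peak. A summit among the 5000 strongest was found at 60.0% of the 10 pharynx factor genes and at 13 of 21 selector genes of other organs (61.9%), such as elt-2 of the intestine and hlh-1 of body muscle. None of those 21 had an IDR peak.

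Families that hold some of the 10 genes, forkhead, ceh homeobox and T-box, were read too, beside the same 30% and 7.76% of all genes. Of 15 forkhead genes, pha-4 included, 5 (33.3%) had a summit among the 5000 strongest pooled regions, and 3 had an IDR peak, fkh-7 (rank 485), daf-16 (rank 628) and fkh-9 (rank 861). Of 63 ceh homeobox genes, 5 of them among the 10, 16 (25.4%) had a summit among the 5000 strongest, below the share of all genes. Of those 16, 4 had an IDR peak (6.35% of the 63), ceh-38 (rank 243, at its promoter), ceh-5 (rank 414), ceh-8 (rank 552) and ceh-22. Of these summits, only those of fkh-9, ceh-38 and ceh-22 were nearest to the 5′ end of the gene itself. The nearest was C39H7.4 for fkh-7, gpx-8 for daf-16, eat-16 for ceh-5 and col-63 for ceh-8. Of 19 T-box genes, tbx-2 included, 4 (21.1%) had a summit among the 5000 strongest and none an IDR peak. With lists of this length no difference between lists was tested.

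**Figure D5:**
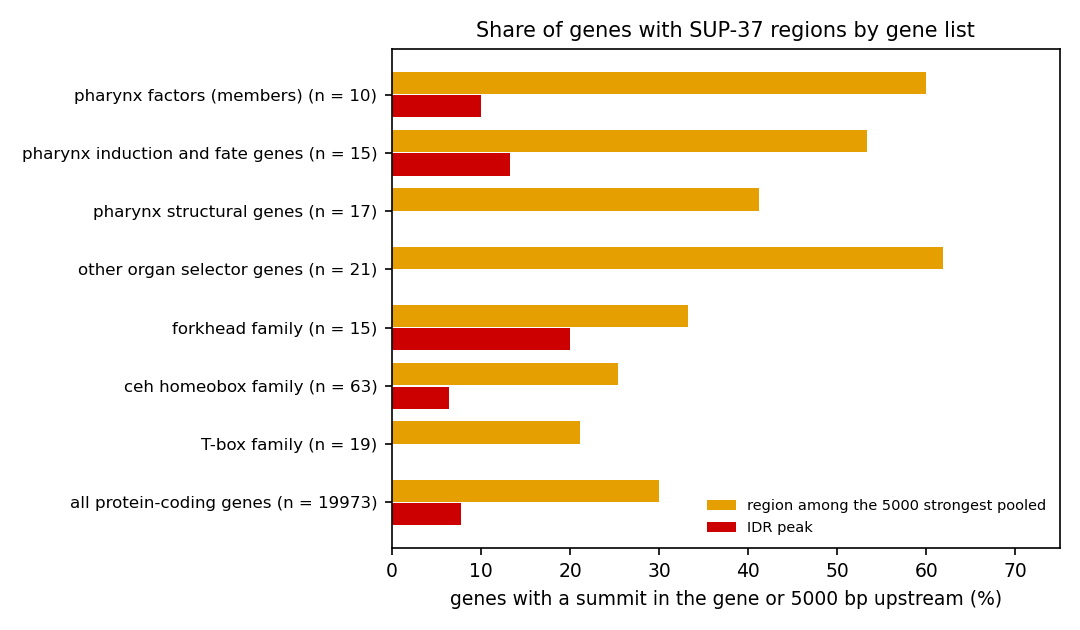
Share of genes (%) with a summit in the gene or 5000 bp upstream among the 5000 strongest pooled regions (upper bar) and among IDR peaks (lower bar), for the 10 pharynx factor genes, related lists and all protein-coding genes. The upper bar is 60.0% at the 10 genes, 61.9% at selector genes of other organs and 30% at all genes.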

How the data were processed

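The authors' lists are narrowPeak files on ce11 with 30000 regions for each replicate and for the pooled alignments, and 924 IDR-thresholded peaks derived from those 3 lists, per the deposited descriptions. Each list derives from alignments of the samples and 2 files that the descriptions do not explain, not analysed here. The deposited signal of column 7 has no stated scale and was used only for ranks within a list. Not given in the sources used here are the aligner, the peak caller and the IDR cutoff. The lists hold no read counts, so depth per library is unknown. Genes came from Ensembl release 115 and sequence from RefSeq's copy of WBcel235, the assembly of ce11. All regions fitted its chromosome lengths, and all 21 annotated start codons of the 10 genes read ATG. The summit was the region start plus the deposited offset. No region was identical between the replicate lists. At the 10 genes their widths differ, 396 bp in replicate 1 and 376 bp in replicate 2, so identical regions were not possible there. Counting was tested on simulated summits. Python 3.11.15, pandas 2.3.3 and scipy 1.17.1 were used. Exact (Clopper-Pearson) 95% binomial intervals cover counting error over genes. The 10 genes, the related lists and the alternatives were chosen with earlier results of these data known. The genes named were the 10, the genes nearest to their regions, and up to 6 genes with an IDR peak in each related list.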

Additional observations from a re-analysis of the deposited data

How the results depend on the processing

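The single IDR peak at the 10 genes, in ceh-22, was counted alike with 2000 or 10000 bp upstream, with the gene body alone, with windows from the most downstream 5′ end, with the nearest 5′ end only, and with the 924 strongest regions of replicate 1 in place of the IDR list. It was lost (0 genes and 0 summits, a density of 0) with the 462 strongest IDR peaks and with the 924 strongest regions of replicate 2. The count over all 19973 protein-coding genes did change with the window. An IDR peak was found at 1550 of them with 5000 bp upstream, 1059 with 2000 bp, 2240 with 10000 bp and 237 in gene bodies. The share of 1 in 10 therefore lay above that of all genes with 2000 bp and in gene bodies, and below it with 10000 bp. Per 100 kb, the density of 1.00 ranged from 0 to 1.00 when a replicate was left out and was 2.00 in gene bodies, which hold less sequence. Genes with a promoter peak numbered 0 with promoters of 500 to 100 bp and of 2000 to 500 bp and in either replicate, and 1 (ceh-22) with the 5′ ends of all transcripts. Genes with a shared summit among the strongest regions of both replicates numbered 0 at 924 regions and 3 at 5000. The median rank of 4044 was 4886 and 5638 when a replicate was left out. It was 7115 with 2000 bp upstream, beside 15267 over all genes, and 10390 in gene bodies, beside 27545. With 10000 bp upstream the medians were closer, 3976 over the 10 genes beside 6440 over all genes. With 2000 or 10000 bp upstream, 12 of 20 single-gene ranks came from the same region and 8 changed, among them ceh-24, at 26050 with 2000 bp. Leaving out pha-4, chosen after seeing the data, gave 36.4% in place of 51.1%, and 26.9% in place of 42.9% below rank 5000, for regions with a counterpart in both replicates. The cause of these shifts was not tested. No paired analysis was possible because there is 1 group. Depth is unknown, so weak binding below these lists cannot be judged.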
